A study of Rattus norvegicus with 26 samples.

Results

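The cytosolic ribosomal proteins were followed here as 1 group of genes in the hippocampus of aging rats fed different amounts of vitamin D3. Members were the genes whose single symbol on the array starts with Rpl or Rps and a digit, together with Rplp0, Rplp1, Rplp2 and Rpsa. Symbols of S6 kinases, of copies marked as pseudogenes, and of hyphenated or l-suffixed relatives such as Rpl22l1 were left out. The rule found 70 of the 14506 genes named on the array, each read by its probe set of highest mean. Of these, 67 reached the intensity filter, a mean log2 value of at least 6.94, the median of all probe sets, and could be tested: 25 of the small and 42 of the large subunit. Rps27, Rps4y2 and Rps19bp1 fell below it, and the last encodes a protein that binds Rps19 rather than a part of the ribosome. All 26 rats were male F344 animals aged 18 months, and each gave 1 array of total hippocampal RNA. They ate a purified diet that held 100 IU of vitamin D3 per kg (low, 8 rats), 1000 IU (control, 9 rats) or 10000 IU (high, 9 rats). The study asked how dietary vitamin D3 bears on the aging hippocampus. Rats shared cages in pairs, so the 26 came from 14 cages, of which 12 gave both animals.

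Ribosomes translate mRNA into protein, with a small subunit that holds the mRNA and decodes it and a large subunit that joins the amino acids. Each cytosolic ribosome carries 1 copy of most of these proteins, and their mRNAs belong to the most abundant of any cell, neurons included. Most of the mRNAs start with a C and a run of pyrimidines, the terminal oligopyrimidine tract, through which growth signalling by mTOR controls how strongly they are translated. An array reads the amount of RNA and not this translational control.

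That start is visible in the RefSeq promoter windows, which run from 250 bases before to 50 bases after each annotated start in the GRCr8 assembly. Some genes had several annotated starts (33469 windows for 27457 genes), and only the first listed window of a gene was used. A window was found for 60 members, 59 by gene ID and Rps9 by symbol. The stretches below show a choice of the members described further on, made after their values were seen, with 25 bases before the start and 15 bases from it on, 5′ to 3′ on the gene's strand. Capitals mark a C within 5 bases of the start followed by at least 5 bases that are C or T.
Rps9, chr1:74430423-74430462, minus strand: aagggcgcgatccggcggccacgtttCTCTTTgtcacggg
Rps15a, chr1:181860270-181860309, minus strand: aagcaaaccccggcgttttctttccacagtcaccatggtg
Rpl10, chrX:157205825-157205864, plus strand: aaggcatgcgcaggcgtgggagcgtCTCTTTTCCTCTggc
Rps21, chr3:187724013-187724052, plus strand: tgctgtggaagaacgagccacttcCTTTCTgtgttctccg
Rps26, chr7:1643390-1643429, minus strand: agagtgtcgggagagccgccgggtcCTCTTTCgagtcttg
Rps10, chr20:5700730-5700769, minus strand: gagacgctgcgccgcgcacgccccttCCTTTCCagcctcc
Rpl38, chr10:100200410-100200449, plus strand: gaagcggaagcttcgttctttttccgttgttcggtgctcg
Rpl36a, chrX:102059424-102059463, plus strand: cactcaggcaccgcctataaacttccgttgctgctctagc
Rpl41, chr7:1563483-1563522, minus strand: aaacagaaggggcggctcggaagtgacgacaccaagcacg
Rplp1, chr8:71290858-71290897, minus strand: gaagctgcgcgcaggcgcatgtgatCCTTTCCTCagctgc
Rplp0, chr12:46718376-46718415, minus strand: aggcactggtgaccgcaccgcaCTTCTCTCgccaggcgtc
Rps19, chr1:89608663-89608702, plus strand: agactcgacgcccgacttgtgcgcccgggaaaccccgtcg
Rps12, chr1:23500050-23500089, plus strand: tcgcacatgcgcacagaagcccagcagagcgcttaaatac
Rpl18, chr1:105325245-105325284, plus strand: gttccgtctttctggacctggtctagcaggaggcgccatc
Rpl10, Rps9, Rps21, Rps26, Rps10, Rplp0 and Rplp1 show such a tract in this window, and Rps15a, Rpl38, Rpl36a, Rpl41, Rps19, Rps12 and Rpl18 show none at the annotated start. Over all members with a window, 35 of 60 (58.3%) held the tract, beside 9.75% of the 27457 genes with a promoter in the table. In 19 members it began exactly at the annotated base. A tract that began more than 5 bases from this start, or lay at another start of the gene, was not counted. Searched on both strands, CCGGAAG, the letters of an ETS site, stood in 18 member windows (30.0%, beside 9.22% of all), and ATGGCGG, those of a YY1 site, in 14 (23.3%, beside 5.22%). GGGCGG, an SP1 site, stood in 35 (58.3%, beside 34.9%) and TGACGT, a core of cyclic AMP response elements, in 9 (15.0%, beside 8.22%). TATAAA, the TATA box, stood in 7 (11.7%, beside 14.3%). The vitamin D response element, direct repeats 3 bases apart, was found in 0 member windows and in 28 of all (0.102%). The matches describe letters in these windows and no binding was measured. Members with and without the tract by this rule are set side by side with no test. The median difference, high minus low, was 0.0061 over 33 tested members with it and 0.0028 over 24 without, and the median SD within diets was 0.075 and 0.076.

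The mean level of the ribosomal protein mRNAs was close to the same in the 3 diets. The mean log2 value over the 67 members was 10.738 ± 0.040 (SD, n = 8) in low, 10.740 ± 0.028 (SD, n = 9) in control and 10.747 ± 0.029 (SD, n = 9) in high rats. The single rats lay between 10.66 and 10.79 in low, between 10.67 and 10.77 in control and between 10.69 and 10.78 in high, so the 3 diets overlapped over nearly their whole range. By limma's moderated tests with Benjamini-Hochberg adjustment over all 8485 tested genes, 0 of 67 members were called at an adjusted p under 0.17 in the F-test over the diets or in any of the 3 contrasts between diets. The background was 0% of all tested genes in each of these 4 comparisons. The members' counts were also 0 at an adjusted p under 0.05 or 0.31, where the background was 0% except in high minus low at 0.31 (2 genes, 0.0236%).

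At an unadjusted p under 0.05, 3 of 67 members (4.48%) passed in high minus low, beside 7.22% of all tested genes. The 3 were Rps9, Rps15a and Rpl10, all higher, beside 4.5% of all genes higher. In high minus control the count was 1 (Rps15a, 1.49% beside 4.63%), in low minus control 0 (beside 2.27%), and in the F-test 1 (Rps15a, beside 4.62%). The shares rest on 0 to 3 members each and are not read as a difference from the background. Over the members the differences had both signs. From low to high 41 were higher and 26 lower, with a median log2 difference of 0.0061, beside 0.0053 over all tested genes. From control to high 38 were higher and 29 lower (median 0.0055, all genes 0.00043), and from control to low 29 were higher and 38 lower (median -0.0048, all genes -0.0043). These contrasts share their groups with each other and are not separate evidence. The sign of a median turned with single arrays: from low to high it was -0.00347 without low rat 2, and from control to low it was 0.0158 without low rat 2, 0.00328 without low rat 7, 0.0045 without control rat 17 and 0.000362 without control rat 13.

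**Figure D1:**
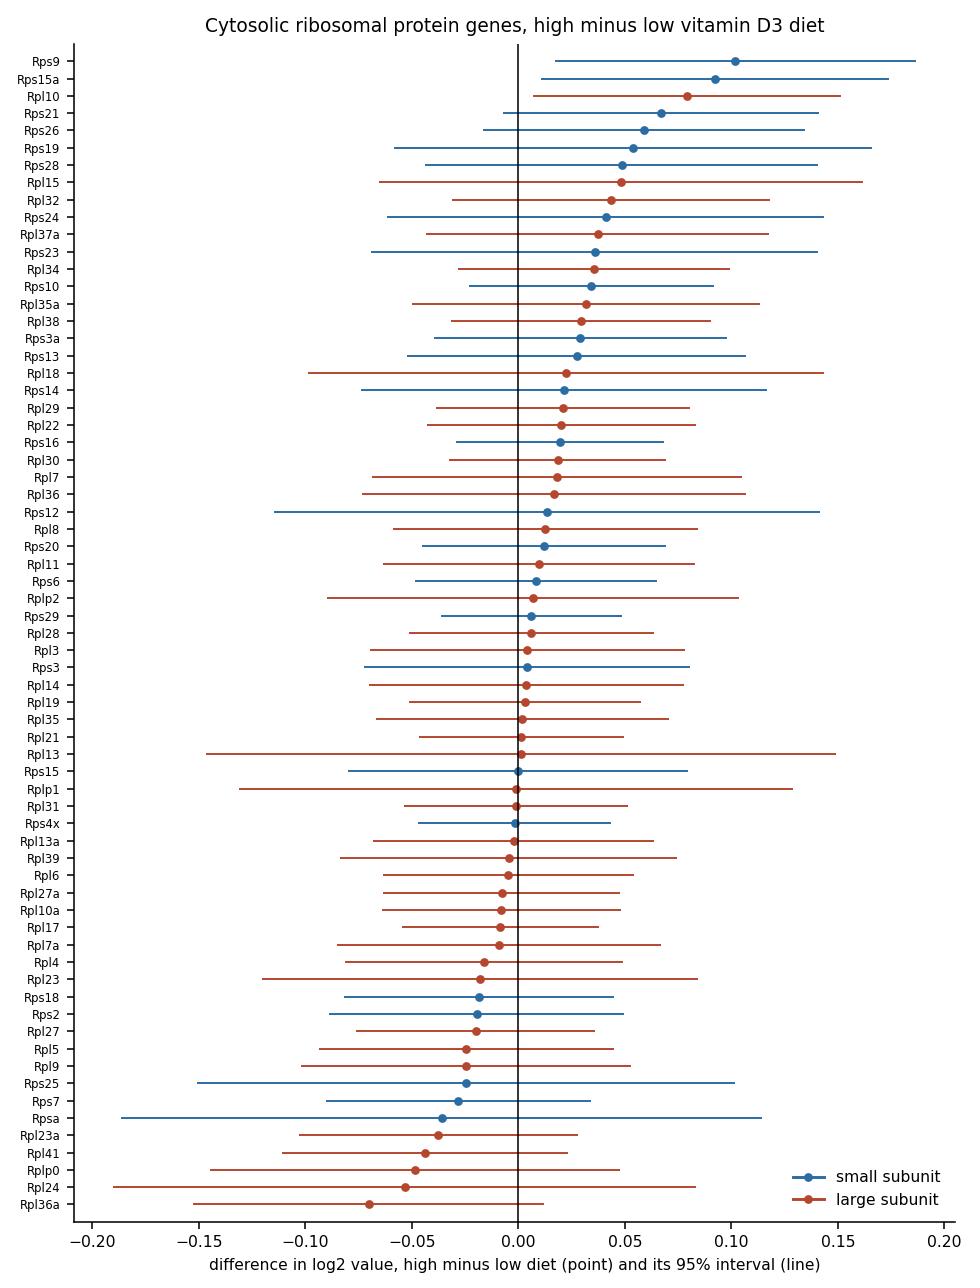
Differences in log2 value between the high and low diets for the 67 tested members, sorted by size, with 95% intervals as lines and subunits by colour. The differences run from -0.070 (Rpl36a) to 0.10 (Rps9), and only the lines of Rps9, Rps15a and Rpl10 lie clear of 0, before adjustment over genes.

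The precision of these values sets how large a difference could have gone unseen. The median standard error of high minus low was 0.036 over the members. In each of the 3 diet contrasts the 95% intervals of all 67 members lay within 1.2-fold either way, and 50, 56 and 60 lay within 1.1-fold when high was set against low, high against control and low against control. Over all tested genes 75.8%, 80.7% and 81.6% lay within 1.1-fold. The widest bound from low to high was that of Rpl24, a late-joining protein of the large subunit, whose interval reached a log2 difference of 0.19 in size, or 1.14-fold. These intervals are not adjusted for the number of genes. Most rats shared a cage with another, and the spread between rats is taken as independent here.

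Among small subunit proteins the difference from low to high with the lowest p was that of Rps9, a protein of the body of the subunit that bears on decoding accuracy. Rps9 had a log2 value of 9.62, 9.74 and 9.80 as lowest, median and highest of the low rats, of 9.59, 9.76 and 9.91 in control rats and of 9.69, 9.83 and 9.93 in high rats. The ranges overlapped, and 6 of 9 high rats lay above every low rat, the lowest of them level with the highest low rat at 9.80. The difference was 0.10 with a standard error of 0.041 (unadjusted p = 0.0195, adjusted p = 0.680 by limma). It was 0.118 without the 3 arrays of lowest quality weight (low rat 7, control rat 17 and high rat 19).

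Rps15a, another small subunit protein, had a lowest, median and highest value of 8.98, 9.10 and 9.21 in low, of 9.04, 9.12 and 9.26 in control and of 9.02, 9.21 and 9.35 in high rats. Of the high rats, 5 of 9 lay above every low rat, while high rat 18 at 9.02 lay near the bottom of all. The differences were 0.092 from low to high (unadjusted p = 0.0270, adjusted p = 0.680) and 0.088 from control to high (unadjusted p = 0.0303, adjusted p = 1.000). Rps21 (0.067), Rps26, which lines the mRNA exit (0.059), and Rps10 (0.034) were the small subunit members next in order of p among those higher in high than in low rats, at adjusted p of 0.712 to 0.826.

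Rps6, whose phosphorylation by S6 kinase is the common readout of mTOR activity, had a mean log2 value of 11.73 ± 0.072 (SD, n = 8) in low, 11.73 ± 0.027 (SD, n = 9) in control and 11.74 ± 0.053 (SD, n = 9) in high rats. Its RNA differed by 0.0083 from low to high, with a 95% interval from -0.048 to 0.064, and its phosphorylation is not read by an array. Rps3, at the mRNA entry, differed by 0.0041, and Rps4x, which is encoded on the X chromosome, by -0.0016. Rpsa, also known as the laminin receptor, had the widest spread of the 67 tested members, with an SD within diets of 0.163. Its low rats ran from 8.06 to 8.52, its control rats from 8.00 to 8.48 and its high rats from 8.02 to 8.50, so the 3 diets spanned nearly the same values.

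Of the large subunit, Rpl10, which is among the last proteins added to the subunit, had a lowest, median and highest value of 12.59, 12.80 and 12.91 in low, of 12.76, 12.84 and 12.91 in control and of 12.81, 12.86 and 12.98 in high rats. All 9 high rats lay above the mean of the low rats, but only 2 lay above every low rat. The difference was 0.079 with a standard error of 0.035 (unadjusted p = 0.0314, adjusted p = 0.680). The lowest value belonged to low rat 7, one of the 3 arrays of lowest quality weight, and the difference was 0.0493 without it. Rpl36a, at the tRNA exit site, and Rpl41, a very short peptide, were lower in high than in low rats, by differences of -0.070 (adjusted p = 0.743) and -0.044 (adjusted p = 0.802). The high rats lay between 10.49 and 10.72 in Rpl36a and the low rats between 10.53 and 10.88. With the 3 arrays of lowest quality weight left out, Rpl36a differed by -0.0382. Rpl38, known for its part in translating Hox mRNAs, had the difference of lowest p from control to high among large subunit proteins (0.058, unadjusted p = 0.0517, adjusted p = 1.000). Rpl3 at the peptidyl transferase centre, Rpl22, which also binds RNA outside the ribosome, and Rpl39 at the tunnel exit differed by 0.0043, 0.020 and -0.0046 from low to high.

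**Figure D2:**
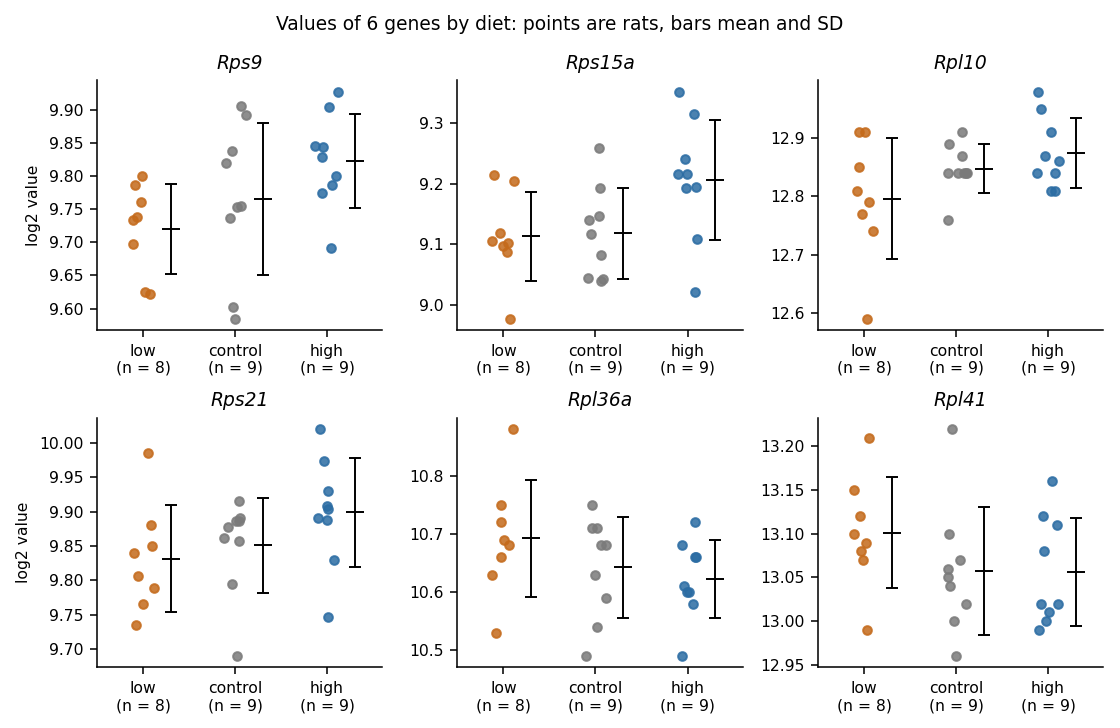
Log2 values of Rps9, Rps15a, Rpl10, Rps21, Rpl36a and Rpl41 in every rat by diet, with the mean and SD beside the points. Each panel has its own scale, and in every panel the points of the 3 diets overlap; in Rps9 6 of the 9 high rats lie above all low rats.

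The stalk of the large subunit recruits the translation factors that split GTP, and consists of Rplp0 with dimers of Rplp1 and Rplp2. From low to high, Rplp0 differed by -0.049, Rplp1 by -0.00095 and Rplp2 by 0.0068, and no difference of the 3 had an adjusted p below 0.858. Rpl5, Rpl11 and Rpl23 can also bind Mdm2, the regulator of p53, when they are not part of a ribosome. Of these 3, Rpl5 differed by -0.024 and Rpl11 by 0.0096 from low to high, and the median was -0.018. Diamond-Blackfan anaemia follows from the loss of 1 copy of any of several ribosomal protein genes, of which Rps19 is the most often hit. Of 15 such genes tested, 11 were higher and 4 lower from low to high (median 0.022). Of these 0 passed an unadjusted p under 0.05, beside 7.22% of all tested genes. Rps19 itself differed by 0.054, with an interval from -0.058 to 0.165.

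The small subunit members had the larger median difference. From low to high, 18 of 25 small subunit members were higher (median 0.020), as were 23 of 42 large subunit members (median 0.0016). The mean over small subunit members minus the mean over large subunit members was -0.561 ± 0.024 (SD, n = 8) in low, -0.560 ± 0.019 (SD, n = 9) in control and -0.541 ± 0.023 (SD, n = 9) in high rats. Only shifts of this value between rats can be read, since levels of different probe sets cannot be set against each other. The values of single rats ran from -0.589 to -0.512 in low and from -0.581 to -0.4995 in high, and no test was made on it.

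Within a diet the members varied together more than genes at large, but in opposed sets. After the diet means were removed, the median correlation over the 26 rats was 0.185 over the 2211 pairs of members, beside 0.0405 over all pairs of tested genes. It was 0.236 among small and 0.167 among large subunit members, and 0.106 among 64 tested mitochondrial ribosomal proteins, which form the separate ribosome of that organelle. With those 3 arrays left out the values were 0.205 for members and 0.0458 for all pairs. Points of one array share its hybridization, so these are descriptions. The median SD within diets was 0.0745 for members and 0.0757 for all tested genes.

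Rps4x, Rpl13a and Rpl35 followed the mean of the other members most closely (r of 0.804, 0.792 and 0.782 over 26 rats), while Rplp1, Rpl11 and Rpl5 did so least (-0.291, -0.156 and -0.0748). The lowest SD within diets was found in Rps29, Rps4x, Rpl17 and Rpl21 (0.033 to 0.042), and the highest in Rpsa, Rpl13, Rpl24 and Rplp1 (0.140 to 0.163). The first principal component of the members held 34% of their variance, with 44 loadings of one sign and 23 of the other. Rps12, Rpl18, Rpsa, Rpl24 and Rps14 lay near one end and Rplp1, Rpl13, Rps23 and Rps19 at the other. On this component both rats of a cage lay on the same side of 0 in 12 of 12 cages. The mean of the members had mates on the same side in 8 of 12 cages. Single members had them so in 7 cages at the median, beside 6 for all tested genes. The first component of the other 8418 tested genes held 15.8% of theirs, with mates on the same side in 11 of 12 cages, and 25 of 26 rats lay on the same side of 0 in both components.

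**Figure D3:**
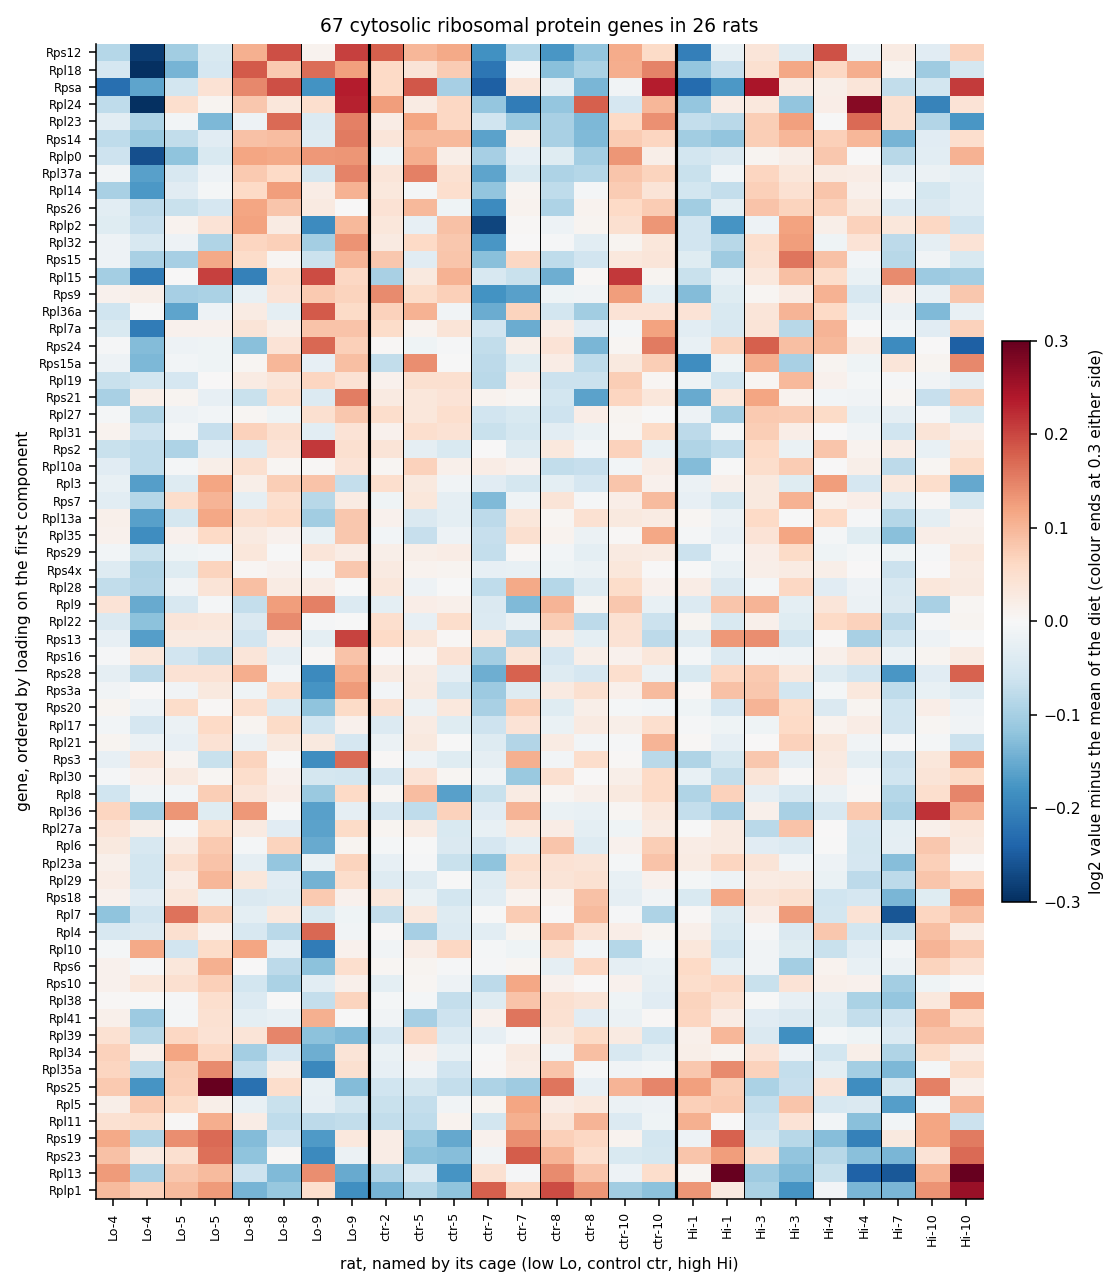
Log2 values of the 67 tested members in each of the 26 rats after the mean of the diet was removed, with genes in the order of their loading and rats in the order of their cages. Thin lines separate cages and thick lines diets; the top and bottom rows have opposed colours, and cage mates mostly share them.

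Cage, a factor that the labels give beside diet, was therefore tested as a comparison of its own, chosen after these values were seen. A moderated F-test over 11 contrasts between cages of one diet, with the differences between cage mates as the error, called 8 of 67 members at an adjusted p under 0.17 (11.9%), beside 5.59% of all 8485 tested genes. At an adjusted p under 0.05 it called 1 member, Rplp1 (1.49%, beside 0.625%), at 0.31 it called 15 (22.4%, beside 13%), and 17 members had an unadjusted p under 0.05 (25.4%, beside 15%). The 8 were Rplp1 and Rplp0 of the stalk, Rps9, Rps12, Rps14 and Rps19 of the small subunit and Rpl7 and Rpl18 of the large subunit, with adjusted p from 0.0486 to 0.148 by limma. The count depended on single arrays. It was 2 without control rat 10 or 11, 3 without low rat 2 or 3, control rat 14 or 15 or high rat 26, and 4 without high rat 20. It was 5 without low rat 4 or high rat 19, 21, 22, 23 or 25, and 14 without low rat 8. Over all genes the count then ran from 193 to 987, beside 474 with all arrays, so the dependence on single arrays was not particular to the members. The share of all genes for each array left out is not given here, and these counts are not read against a background. With each of the 26 arrays left out in turn, Rplp1 stayed below 0.17 (adjusted p from 0.0121 to 0.103), as did Rpl18 (0.0475 to 0.165). The call was lost in 8 of the 26 runs for Rpl7 and Rps14, in 10 for Rps12, in 14 for Rps19, in 18 for Rps9 and in 19 for Rplp0.

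In Rplp1 the low rats of cages Lo-4 and Lo-5 had values of 11.42 and 11.39 and of 11.42 and 11.45, and those of Lo-8 had 11.18 and 11.21. The mates of Lo-9 differed, at 11.37 and 11.14. Control cages ctr-7 (11.50 and 11.39) and ctr-8 (11.52 and 11.46) lay above ctr-5 (11.24 and 11.20), ctr-10 (11.22 and 11.20) and the lone rat of ctr-2 (11.18). High cages Hi-1 (11.45 and 11.35) and Hi-10 (11.46 and 11.58) lay above Hi-3 (11.23 and 11.15), Hi-4 (11.32 and 11.19) and the lone rat of Hi-7 (11.19). Each diet thus held cages of higher and cages of lower Rplp1, and the diet means were equal to 11.32. The median gap between mates was 0.072, beside 0.187 between rats of one diet in different cages, and mates lay on the same side of the diet mean in 11 of 12 cages. The 2 probe sets of Rplp1 gave the same picture over rats, with a correlation of 0.996. Of the other members called between cages, the 2 probe sets above the filter correlated at 0.689 in Rps9 and at 0.457 in Rplp0. In Rps12, Rps14 and Rps19 the kept probe set correlated with the others at 0.866 or more. Rpl7 and Rpl18 had a single probe set.

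Rpl18 and Rps12 ran the other way. In Rpl18 the mates had 11.58 and 11.32 in Lo-4 and 11.49 and 11.58 in Lo-5, but 11.82 and 11.71 in Lo-8 and 11.80 and 11.76 in Lo-9. They had 11.46 and 11.68 in ctr-7 and 11.55 and 11.58 in ctr-8, but 11.72 and 11.75 in ctr-5 and 11.79 and 11.83 in ctr-10. In the high diet they had 11.54 and 11.59 in Hi-1 and 11.55 and 11.60 in Hi-10, but 11.70 and 11.77 in Hi-3 and 11.72 and 11.76 in Hi-4. By cage mean, every cage high in Rplp1 was thus low in Rpl18. The moderated F-test between cages gave Rpl18 an adjusted p of 0.104, which is not a test of its opposition to Rplp1. Both genes were picked from opposite ends of the first component. Rps12 had mean deviations from the diet of -0.184, -0.0741, -0.134, -0.145 and -0.113 in Lo-4, Lo-5, ctr-7, ctr-8 and Hi-1, but 0.0171 in Hi-10 (adjusted p = 0.122). Rps14, of the platform of the small subunit, had mates within 0.033 of each other at the median, beside 0.130 for rats of different cages (adjusted p = 0.110).

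Rps9, the member with the lowest p from low to high, had the highest adjusted p of the 8 members called between cages. Its mates lay at 9.62 and 9.63 in Lo-5 and at 9.80 and 9.79 in Lo-9, at 9.59 and 9.60 in ctr-7 and at 9.82 and 9.84 in ctr-5. Mates lay further apart in ctr-10 (9.89 and 9.74), Hi-4 (9.93 and 9.77), Hi-10 (9.80 and 9.90) and Hi-1 (9.69 and 9.79). The median gap between mates was 0.018, beside 0.086 between rats of different cages (adjusted p = 0.148, from 0.0709 to 0.615 under 12 other settings, 6 of which lost the call). With cage as a random block, the difference of Rps9 from low to high kept its size of 0.102 and its adjusted p was 0.894. The labels give no order of dissection, extraction or hybridization, so cage and any handling shared by cage mates cannot be told apart, and the cause of the cage differences was not tested.

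**Figure D4:**
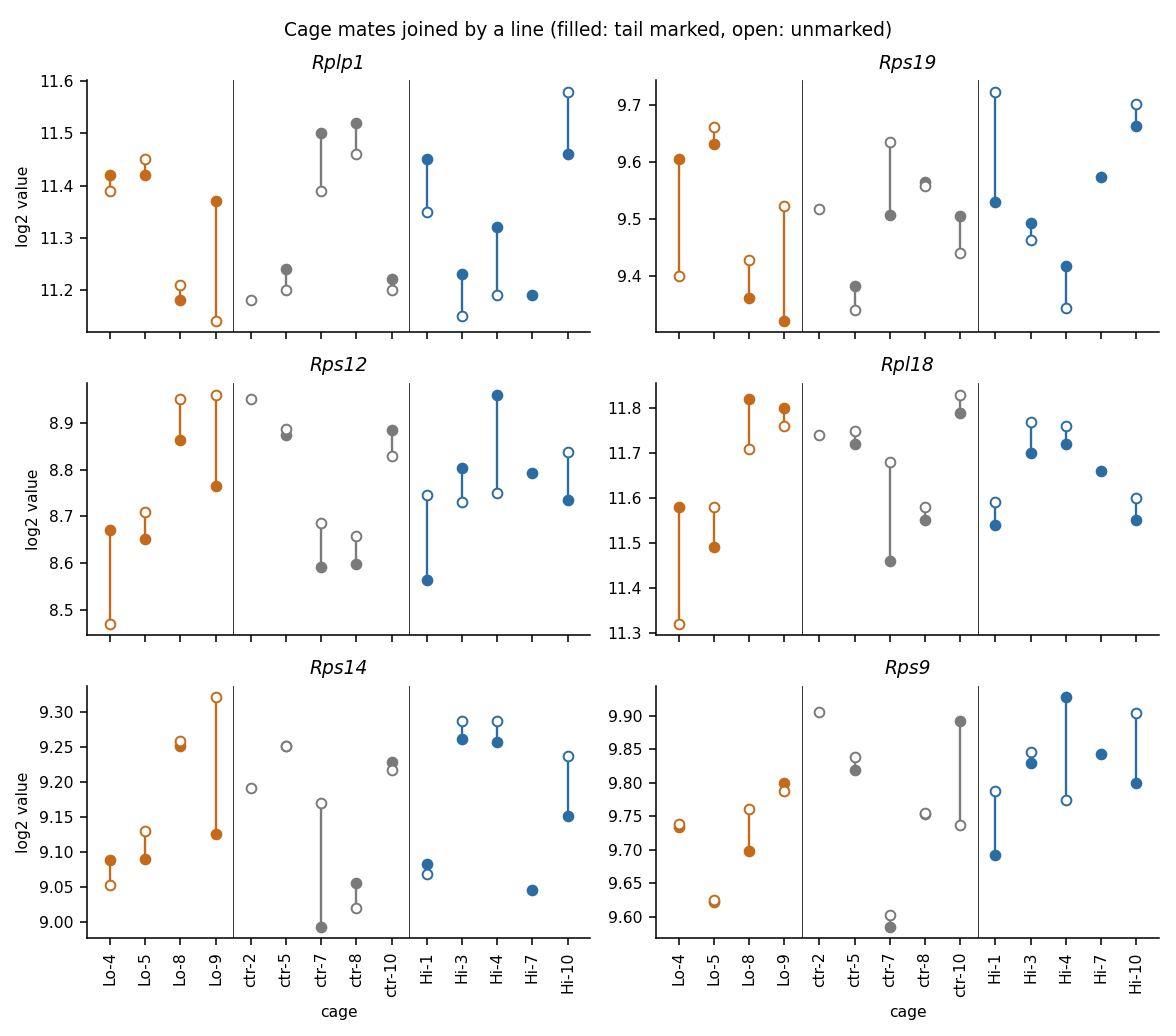
Log2 values of Rplp1, Rps19, Rps12, Rpl18, Rps14 and Rps9 in the 14 cages, with mates joined by a line, filled points for rats with a tail mark and open points for rats without, and diets separated by vertical lines. By cage mean, cages Lo-4, Lo-5, ctr-7, ctr-8, Hi-1 and Hi-10 lie high in Rplp1 and low in Rpl18, and each diet holds both kinds.

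Many members had several probe sets, and copies of ribosomal protein genes are common in mammalian genomes, so a probe set can take up RNA of more than its named gene. The 70 members had 251 probe sets with a single symbol, up to 21 for Rpl21, and 53 members had more than 1. Over 707 pairs of probe sets of one gene the median correlation over rats was 0.870, beside 0.204 for pairs of different members, and 11 pairs held identical values on all arrays. From low to high all probe sets of a gene had the same sign in 34 of 51 genes with several above the filter.

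Rps9 had probe sets with differences of 0.102 and 0.0061 above the filter, and Rpl10 of 0.079 and 0.0097. In Rps15a all 6 were above 0, from 0.0196 to 0.092, and in Rps19 all 5, from 0.054 to 0.079. Both probe sets of Rpl36a were below 0 (-0.070 and -0.044), as were both of Rpl41 above the filter (-0.044 and -0.084). With the mean of all probe sets in place of the brightest one, the differences were 0.0792 for Rps9, 0.0456 for Rps15a and 0.0445 for Rpl10. In Rpl21 the kept probe set had a difference of 0.0014 and the other 20 were below 0, down to -0.069. In Rpl13 the kept probe set correlated with the others of the gene at -0.355 to 0.0548 over rats, and in Rpl5 at 0.0042 to 0.025. In Rpl6 it correlated at 0.955 with one and at -0.274 with the other, in Rpl31 at 0.223 to 0.927 and in Rps21 at 0.0595 to 0.867. The 2 probe sets of Rpl24 correlated at 0.237 and had differences of opposite sign (-0.053 for the kept one and 0.017). Those of Rpl10 correlated at 0.339.

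**Figure D5:**
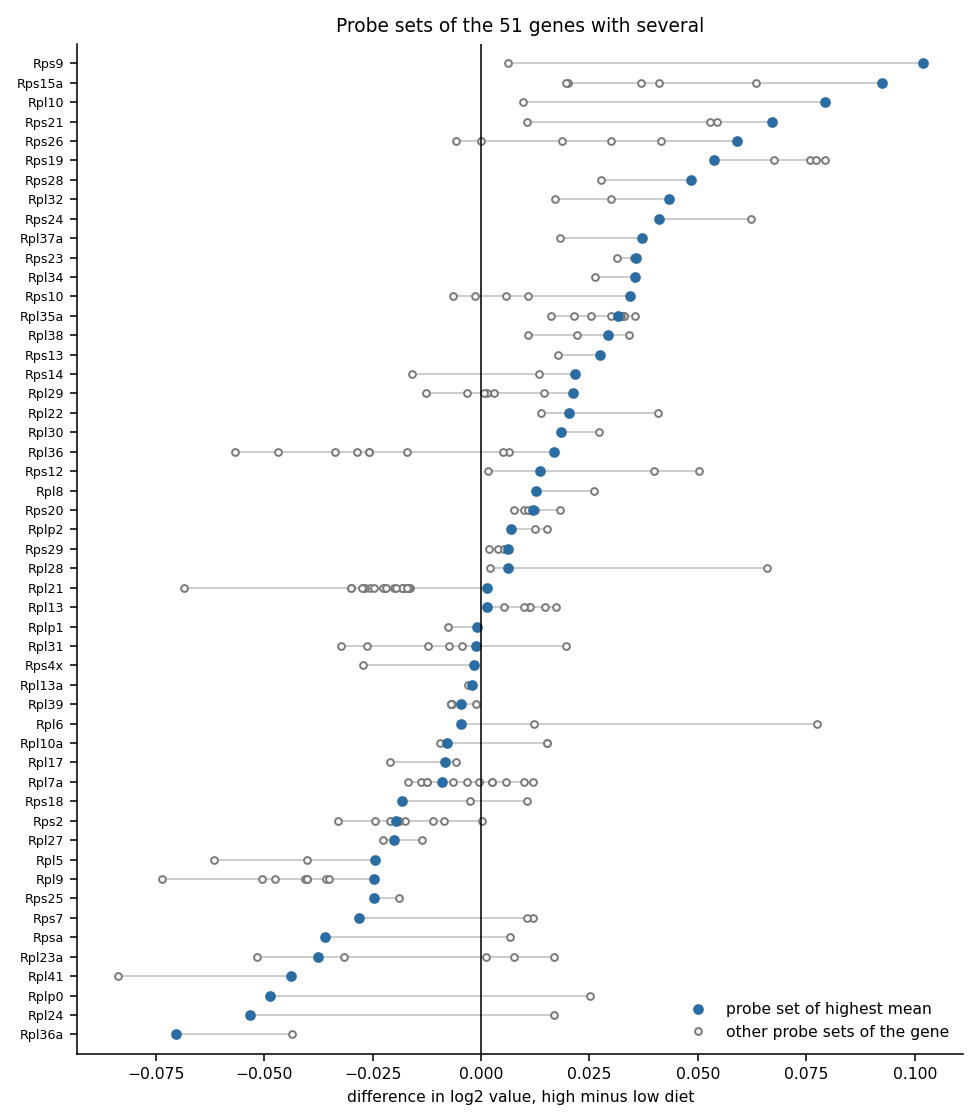
Differences in log2 value from low to high for every probe set above the filter of the 51 members with several, sorted by the probe set of highest mean (filled), with the others as open points. Rps9 and Rpl10 have a second probe set near 0, while all 6 of Rps15a and all 5 of Rps19 lie above 0.

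The tail mark, which told mates apart, gave a comparison that diet does not enter. Its fit held diet and tail mark and did not pair cage mates. From unmarked to marked rats 20 members were higher and 47 lower, with a median of -0.018, beside -0.012 over all tested genes. Of the members 0 were called (background 0%), and 0 had an unadjusted p under 0.05, beside 5.32% of all genes. The lowest p belonged to Rpl3 (0.049, adjusted p = 0.915) and Rps28 (-0.060, adjusted p = 0.920).

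Other genes of translation were read from lists. Of 31 initiation factors tested, 15 were higher and 16 lower from low to high (median -0.00039), with Eif1ax at the lowest p (0.071, adjusted p = 0.680). Of 11 elongation and release factors 8 were higher and 3 lower (median 0.019). Of 56 factors of ribosome biogenesis 31 were higher and 25 lower (median 0.0051), and the lowest p in the list was that of Polr1b, a core subunit of RNA polymerase I, at 0.142 (adjusted p = 0.286). Of 22 genes of growth signalling to translation 12 were higher and 10 lower (median 0.0052), with Rps6kb1, an S6 kinase, at -0.082 (adjusted p = 0.674). Of 5 ribosome-associated genes without an Rpl or Rps symbol, such as Rack1, 3 were higher and 2 lower. Of the paralogs only Rpl22l1 was tested (0.050, adjusted p = 0.888). Of 64 mitochondrial ribosomal proteins 42 were higher and 22 lower (median 0.024), with Mrpl23 at 0.124 and Mrpl38 at 0.093 (both adjusted p = 0.674). In each of these lists 0 genes were called by limma in any diet contrast. At an unadjusted p under 0.05 from low to high, 4 of 64 mitochondrial ribosomal proteins and 3 of 56 biogenesis factors were higher. So was 1 of 31 initiation factors, beside 4.5% of all tested genes that were higher. Of the 22 signalling genes 1 was lower, beside 7.22% of all tested genes in either direction. The test between cages called 5 of 64 mitochondrial ribosomal proteins, 2 biogenesis factors, 1 elongation or release factor and 1 signalling gene. Over all tested genes it called 5.59%.

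Markers of the cells in the tissue were read in the same rats, in which fewer cells of a type and less RNA per cell cannot be told apart. From low to high 10 of 12 neuronal genes were higher (median 0.034), 8 of 10 microglial genes were lower (median -0.040) and 9 of 10 vessel genes were lower (median -0.064). All 4 tested genes of neighbouring cortex were higher (median 0.106), and 8 of 9 genes of the granule and pyramidal fields were lower (median -0.030). Astrocyte genes (4 of 9 higher) and oligodendrocyte genes (5 of 8 higher) were mixed. Ttr of the choroid plexus and Cd3e of blood cells were the only tested genes of their lists. Cd3e differed by -0.329 (standard error 0.138). Ttr differed by -0.276, less than its standard error of 0.675, and ran from 7.61 to 10.06 in low and from 6.79 to 11.05 in high rats. The mean of the neuronal genes lay between 12.08 and 12.15 in low and between 12.11 and 12.17 in high rats, and that of the vessel genes between 8.45 and 8.59 and between 8.42 and 8.52. That of the cortex genes lay between 10.46 and 10.62 in low and between 10.44 and 10.75 in high rats. The mean of the microglial genes lay between 9.75 and 10.31 in low and between 9.77 and 9.90 in high rats. Its median over rats was 9.82 in low and 9.83 in high, so the typical high rat was not lower. None of these genes was called by limma in a diet contrast. At an unadjusted p under 0.05 from low to high, all 4 cortex genes and 2 neuronal genes were higher. At this threshold 4 vessel genes, 1 field gene and Cd3e were lower, and no gene of the other marker lists passed. The share over all tested genes was 7.22%, with 4.5% higher. In the test between cages 1 field gene and 1 astrocyte gene were called and 0 genes of the other marker lists, beside 5.59% of all genes. The part of cell makeup in the values of the ribosomal proteins was not tested.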

How the data were processed

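Hippocampal RNA of 26 rats was measured on Affymetrix Rat Gene 1.0 ST arrays, 1 per rat. The authors deposited log2 values, and the submitters' processing notes name GCRMA and Partek 6.6 without saying what each did. All 29214 probe sets had a value on every array, and array medians lay between 6.92 and 6.96, so values were not normalized further. No pair of arrays was identical. A probe set was named if the array annotation gave it 1 gene symbol (15310 probe sets; 323 had several and 13581 none), the probe set of highest mean stood for a gene, and 8485 genes at or above the filter were tested.

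Moderated contrasts and F-tests (2-sided) were computed in R 4.3.3 (limma 3.58.1) on all 26 arrays together, with diet as the factor and Benjamini-Hochberg adjustment over all tested genes. A call is an adjusted p under 0.17, a false discovery rate named in the series design. Groups, cages and tail marks came from the labels, and p-values measure the spread between rats. The fits were tested on simulated data. Named are members of lowest p, of extreme spread, of extreme fit to the mean, below the filter, of disagreeing probe sets, and a list of known ones. The members and lists were chosen with earlier results of these data known. Promoters and positions are RefSeq's (GRCr8); 69 members matched it by gene ID and Rps9 by symbol. The number of arrays limits the precision. Alternatives covered the filter, normalization, probe set choice, cage, tail mark, array weights, moderation, outlying values and leaving out arrays.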

Additional observations from a re-analysis of the deposited data

Results flagged for a closer look

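Single rats lay apart from the rest of their diet in 12 of 150 combinations of a named member and a diet, by a gap to the nearest rat that was large against the range of the diet (Dixon's ratio). Chance gives about 1 in 20 such groups if they are independent and not chosen by their values. The named members were partly chosen by their values and share the same arrays, so this rate is only a rough guide. Among the low rats, rat 2 was lowest in Rpl35 at 10.35 (the others from 10.51 to 10.62), in Rpl7a at 9.795 (9.96 to 10.09) and in Rps29 at 13.4 (13.45 to 13.50). Low rat 7 was lowest in Rpl27a at 10.05 (10.17 to 10.26) and highest in Rps2 at 12.36 (12.06 to 12.20), and its array was among the 3 of lowest quality weight. Among the control rats, rat 12 was lowest in Rpl32 at 12.29 (12.44 to 12.55) and in Rplp2 at 10.78 (11.03 to 11.19). Control rat 13 was highest in Rps10 at 10.09 (9.89 to 9.99), control rat 15 highest in Rps6 at 11.79 (11.70 to 11.74), and control rat 16 lowest in Rpl10 at 12.76 (12.84 to 12.91). Among the high rats, rat 24 was lowest in Rpl7 at 10.22 (10.42 to 10.60), and rat 21 was lowest in Rpl39 at 11.85 (11.99 to 12.13). Rats 2, 12 and 24 also had the lowest mean over all members in their diets.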

How the results depend on the processing

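The count of called members stayed at 0 in the 3 diet contrasts, the F-test and the tail mark comparison under every alternative run and with each array left out. Members at an unadjusted p under 0.05 from low to high, 3 in the reported fit, numbered from 1 to 5. The median difference of the members from low to high ran from 0.0031 to 0.0131 under the other settings and from -0.0035 (without low rat 2) to 0.0132 with single arrays left out. That from control to high ran from -0.00079 (every probe set on its own) to 0.0182 (single arrays left out: 0.00038 to 0.0152), and that from control to low from -0.0049 to 0.0082, the highest with the 3 arrays of lowest quality weight left out (single arrays left out: -0.0112 to 0.0158). The test between cages, whose count was 8, gave 1 with an adjusted p under 0.05 (0.625% of all genes) and 15 under 0.31 (13%). It gave 1 with no intensity filter, 5 with the tail mark as a covariate, 3 without moderation and 5 without those 3 arrays. With every probe set on its own it gave 13, where a gene counted if any of its probe sets was called. The shares of all genes under these settings are not given here, so these counts are not read against a background. With single arrays left out the test gave from 2 to 14 members, and from 193 to 987 over all genes. Rplp1 was called between cages under all 12 alternatives run for it (adjusted p from 0.0088 to 0.102). Cage means, a cage block, removal of values over 2 SD and a fit to only the diets compared were not run for the cage test. Rats could not be paired between diets because the rat numbers are unique across diets. Cage mates were not paired in the reported tail mark comparison. Cage was used as a random block, with a consensus correlation of 0.136. The cause of these shifts was not tested.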
